A study of Mus musculus with 3 samples.

Results

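The genes described here encode the nuclear subunits of oxidative phosphorylation, together with a few of their assembly factors, in mouse muscle stem cells (MuSC). Members were taken by symbol, as every gene starting with Nduf, Sdha to Sdhd, Uqcr, Cox4i, Cox5, Cox6, Cox7, Cox8 or Atp5 that had a probe set of its own on an Affymetrix MOE_430_2 array. The rule found 94 of the 18193 genes with such a probe set. There were 35 genes of complex I, 4 of complex II, 8 of complex III, 17 of complex IV and 17 of complex V, and a further 13 were not subunits, namely Ndufaf1 to Ndufaf8, Sdhaf1 to Sdhaf4 and Ndufa4l2, a paralogue of Ndufa4. Cox7b was not analysed here, and Ndufa11 and Ndufs6 were read only by probe sets shared with a second gene, so none of these is a member.

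RNA was measured in 3 conditions with 1 array each. MuSC +OSM (+OSM cells) were sorted MuSC kept for 3 days in culture with 100 ng/mL of oncostatin M (OSM) in medium that held 10% FBS. OSM is a cytokine of the interleukin-6 family that signals through gp130. MuSC −OSM (−OSM cells) had the same 3 days in 10% FBS without OSM, and fresh MuSC were taken directly after sorting. All cells came from wild-type C57BL/6 mice aged 8 weeks and were sorted as CD34+ α7 integrin+ cells after enzymatic digestion of muscle, a step that all 3 conditions share. The mice were female by the study's methods. How many mice stand behind each array was not stated in the labels. With 1 array per condition no difference below has a replicate check, and each ratio compares these arrays and not the conditions as such.

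Oxidative phosphorylation takes place in the inner mitochondrial membrane. Complex I accepts electrons from NADH and complex II from succinate, complex III passes them on to cytochrome c and complex IV to oxygen, and complex V, the ATP synthase, uses the proton gradient built up along the way to make ATP. Each complex except complex II also holds subunits encoded by mitochondrial DNA, which are not among these genes. Resting MuSC are known for few mitochondria and differentiated muscle fibres for many. Several complex IV subunits exist as a form found in most tissues and a second form made mainly in heart and skeletal muscle.

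Many nuclear genes of the respiratory chain share short letter strings near their start, known as binding sequences of NRF-1, of ETS family factors such as GABPA, and of YY1. RefSeq sequences of build GRCm38.p6, from 250 bases before to 50 bases after each gene's start, were found for 78 of the 94 members (83 promoters) and for 32851 promoters in all. Shown first, to let the shared letters be seen, are 30 bases around an NRF-1 string for 1 subunit of each complex, the subunit with the highest ratio of MuSC −OSM over fresh MuSC among those that hold it. The sixth is the start of Cox8b, the muscle form gene described below, which holds TATAAA and the E-box CAGCTG in place of an NRF-1 string. Capitals mark these strings, on either strand.
Ndufa5 (complex I, chr6:24527697-24527726, minus strand): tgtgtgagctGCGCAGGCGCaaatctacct
Sdhd (complex II, chr9:50603909-50603938, minus strand): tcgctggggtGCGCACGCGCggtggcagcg
Uqcrc1 (complex III, chr9:108936643-108936672, plus strand): cttccttacaGCGCTTGCGCctcagactcc
Cox6a1 (complex IV, chr5:115349101-115349130, minus strand): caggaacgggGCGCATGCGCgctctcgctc
Atp5o (complex V, chr16:91931602-91931631, minus strand): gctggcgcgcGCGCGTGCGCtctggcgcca
Cox8b (complex IV, chr7:140900425-140900454, minus strand): ctccaccccagcTATAAAaagcccCAGCTG

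The NRF-1 string, which is GCGC, any base and then TGCGC, read on both strands, stood in 20 of the 83 member promoters (24.1%) and in 4.60% of all promoters. The ETS string CCGGAAG was in 22 (26.5%, against 8.86% of all), the YY1 string AAGATGGC in 10 (12.0%, against 2.75%) and the string TCAAGGTCA of the estrogen-related receptors in 2 (2.41%, against 0.423%). These strings were thus held by a larger share of the members' promoters than of all promoters. The string TTCNNNGAA, bound by STAT factors, which lie downstream of OSM receptors, was in 6 (7.23%, against 8.30%), CAGCTG in 6 (7.23%, against 16.3%) and TATAAA in 10 (12.0%, against 13.6%). In no member promoter did matches of these 7 strings overlap each other. A further 8 strings were searched. The longer forms of NRF-1 (TGCGCA followed by TGCGC), ETS (CCGGAAGT) and YY1 (AAGATGGC followed by GG), whose matches overlap those of the shorter forms, were in 3.61%, 6.02% and 6.02% of member promoters against 0.615%, 3.89% and 0.852% of all. GGGCGG was in 48.2% against 35.7%, CACGTG in 8.43% against 7.15%, CANNTG, which also takes in CAGCTG and CACGTG, in 67.5% against 72.3%, and the MEF2 string (CTATT followed by TTTAG) and TTACGTAA in 0 member promoters against 0.110% and 0.119%. A match is a run of letters, not a measured binding site. Members with the NRF-1 string had a median log2 ratio of MuSC −OSM over fresh MuSC of 1.40 (18 measured), and members without it 1.20 (58 measured). For MuSC +OSM over fresh MuSC the order was the other way, at 0.85 with the string and 0.95 without it. For MuSC +OSM over MuSC −OSM the medians were nearly level, at -0.36 and -0.34.

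Signals are MAS5 intensities on a linear scale, and those under 40 were raised to 40 before any ratio was taken, so that a ratio against such a signal is a lower bound and is written "at least". A gene counted as measured in a comparison when at least 1 of the 2 arrays was above 40. Of the 94 members, 92 were measured in at least 1 comparison. Ndufb4, an accessory subunit of complex I, was below 40 on all 3 arrays with its own probe set, at 9 in +OSM cells, 7 in −OSM cells and 25 in fresh MuSC. A probe set that it shares with copies of the gene read 1619, 1627 and 842 on the same arrays. Cox7b2, a testis form, was also below 40 throughout (2, 15 and 15).

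Most members had their highest signal in MuSC −OSM, an intermediate one in MuSC +OSM and the lowest in fresh MuSC. This order was found for 76 of the 92 measured members (82.6%), and for 20.3% of all 12888 measured genes. It held for all 4 genes of complex II, all 8 of complex III and all 17 of complex V, for 28 of 34 of complex I, for 10 of 16 of complex IV and for 9 of the 13 genes that are not subunits. Another 5 members were highest with OSM and lowest in fresh cells (Ndufb3, Ndufv3, Ndufaf1, Ndufaf4 and Ndufaf7), an order found for 13.3% of all genes. In 4 members the fresh array lay between MuSC −OSM above and MuSC +OSM below (Cox4i1, Ndufa6, Ndufb11 and Ndufc2), against 6.04% of all genes. In 4, all of complex IV, the fresh array was highest and MuSC +OSM lowest (Cox6b2, Cox7a2l, Cox7c and Cox8c), against 14.2%. Of the measured members 0 had MuSC −OSM as the lowest array, an order that 21.3% of all genes had with fresh MuSC highest and 7.24% with MuSC +OSM highest. The 3 arrays enter these orders together, so the comparisons below are not independent of each other.

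**Figure D1:**
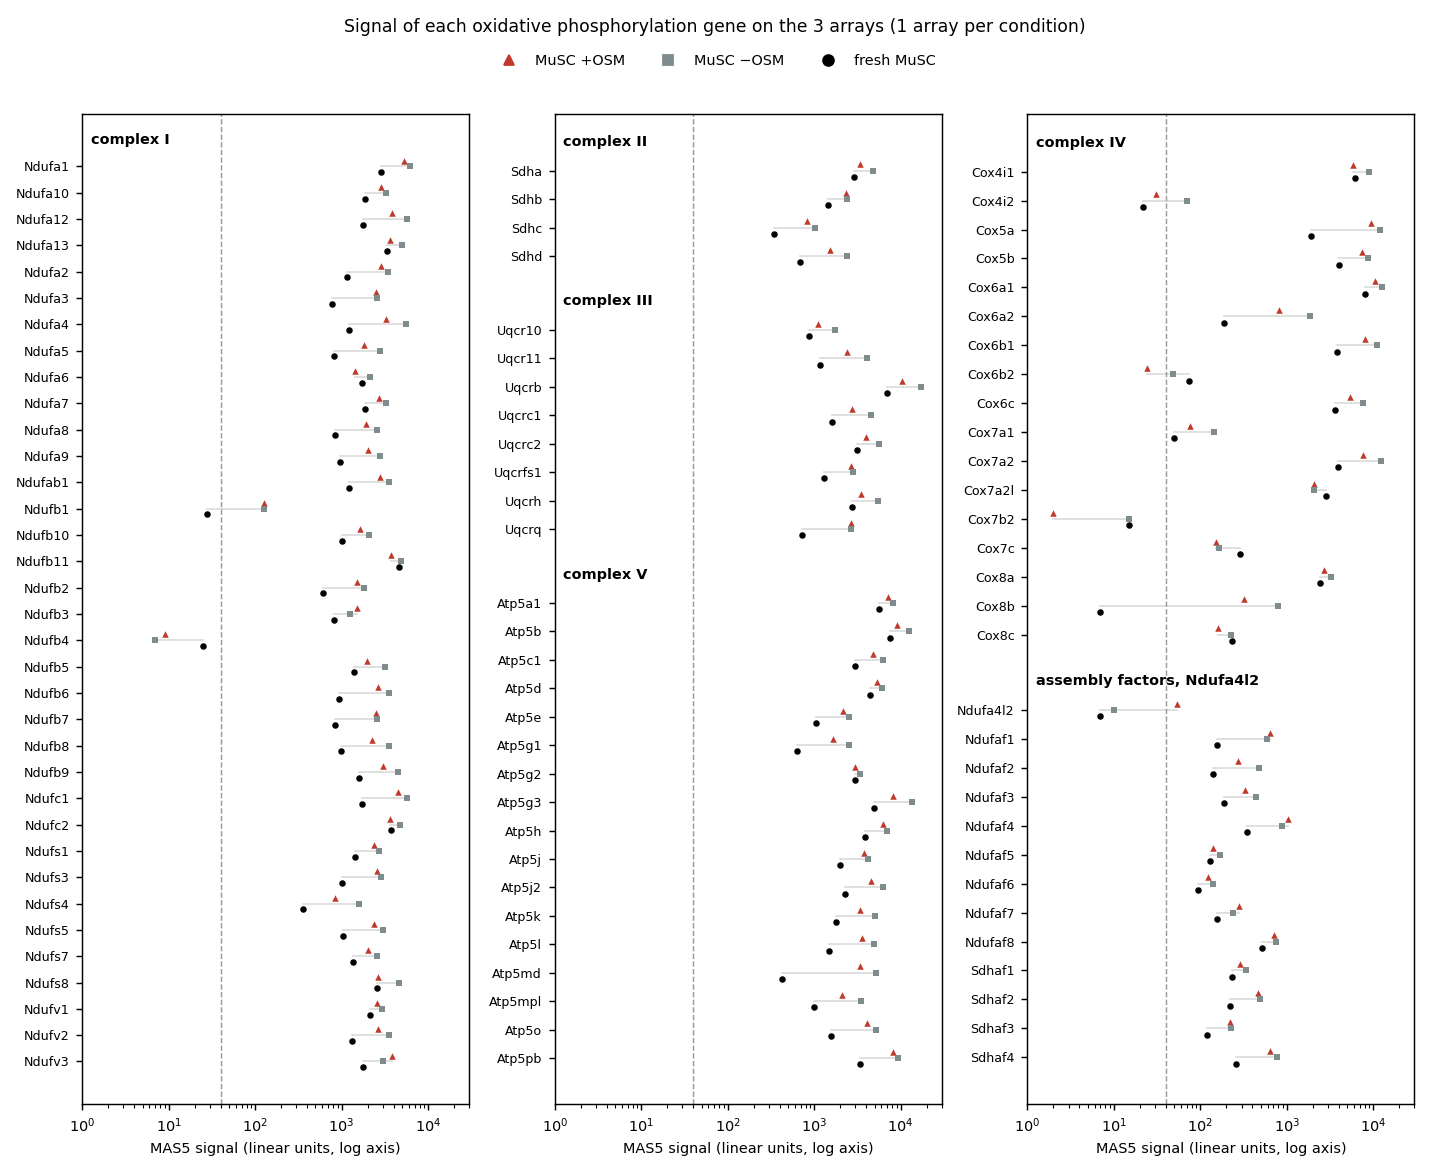
MAS5 signal (linear units on a log axis) of each of the 94 genes on the arrays of MuSC +OSM (triangles), MuSC −OSM (squares) and fresh MuSC (circles), grouped by complex, with the floor of 40 as a dashed line. Each point is 1 array, drawn without raising low signals, and grey lines join the lowest and highest signal of a gene. In the values as deposited, once signals under 40 are raised to 40, MuSC −OSM is highest, MuSC +OSM intermediate and fresh MuSC lowest for 76 of the 92 measured genes. Other scalings change this order for some genes.

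In MuSC +OSM against MuSC −OSM, the members were slightly lower as a group. The median log2 ratio was -0.34 over 92 measured members, against -0.01 over all 11271 measured genes. No member was at least 2-fold higher, where 6.07% of all genes were, and 2 were at least 2-fold lower, Cox8b and Cox6a2, where 4.38% of all genes were. By any amount, 6 of 92 members (6.52%) were higher with OSM, against 49.2% of all genes. This count moved with the processing, to 18 of 92 under quantile normalization (47.5% of all genes) and 13 of 92 with the mean of all probe sets (42.5%). It was 11 of 91 (49.1%) with unmarked probe sets preferred, where probe sets marked for cross-hybridisation were read only for genes without another. The 6 in the values as deposited were Ndufv3, Ndufb3, Ndufaf1, Ndufaf4, Ndufaf7 and Ndufa4l2. Most differences here were small. Apart from Cox8b, Cox6a2 and the genes with only a lower bound, the log2 ratios lay between -0.92 (Ndufs4) and 0.33 (Ndufv3). Those with only a bound were Ndufa4l2, at least 0.43 higher with OSM, and Cox4i2 and Cox6b2, which were lower.

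In MuSC −OSM against fresh MuSC the members were higher, with a median log2 ratio of 1.23 over 91 measured members and of -0.14 over all 12755 measured genes. Of the measured members 56 (61.5%) were at least 2-fold higher, where 15% of all genes were, and 0 were at least 2-fold lower, where 20.4% of all genes were. By any amount, 87 of 91 were higher, against 43.5% of all genes. In MuSC +OSM against fresh MuSC the same direction was seen at a smaller size. The median was 0.91 over 91 members and -0.14 over all 12483 genes, and 39 members (42.9%) were at least 2-fold higher, where 13.8% of all genes were. At least 2-fold lower were 0 members, against 17.2% of all genes, and 83 of 91 were higher by any amount, against 43.5%.

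Bright genes as a class also tended to be higher after culture. When only genes reaching 1000 units on 1 of the compared arrays were kept, 31.6% were at least 2-fold higher in MuSC −OSM than in fresh MuSC, and 47 of 72 members (65.3%) were. For MuSC +OSM over fresh MuSC the shares were 25.6% of such genes and 44.3% of members (31 of 70). For MuSC +OSM over MuSC −OSM they were 6.33% and 0 of 73 members. Scaling also bore on the counts. With each array centred on its median signal, 16 of 91 members (17.6%) were at least 2-fold higher in MuSC +OSM than in fresh MuSC, and 2 (Cox6b2 and Cox7c) were lower by at least 2-fold. Over all genes, that centring gave 8.52% higher and 24.5% lower in this comparison, and 4.51% higher and 6.20% lower for MuSC +OSM over MuSC −OSM. For MuSC −OSM over fresh MuSC, quantile normalization gave 19.4% of all genes higher and 17.0% lower, with 50 of 91 members higher.

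**Figure D2:**
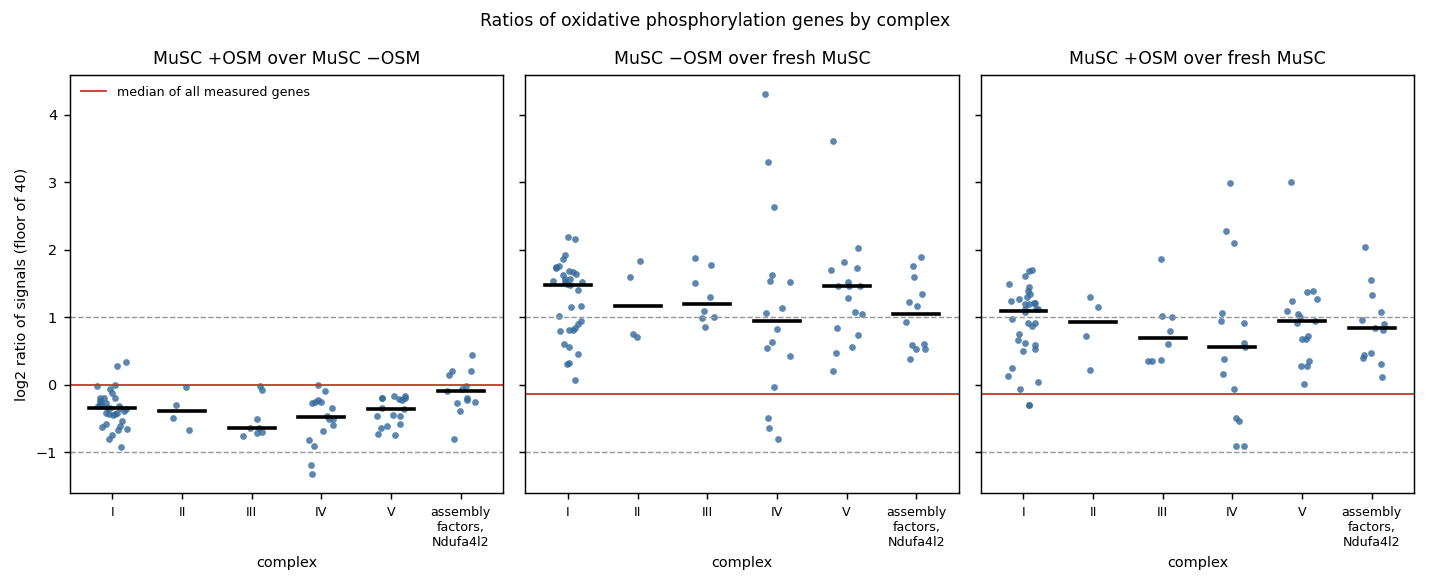
Log2 ratio of each measured gene (points) for MuSC +OSM over MuSC −OSM, MuSC −OSM over fresh MuSC and MuSC +OSM over fresh MuSC, by complex, with the median of each complex (black bar), the median over all measured genes (red line) and the 2-fold thresholds (dashed). The medians of complexes I to V lie between -0.65 and -0.34 in the first panel, between 0.95 and 1.48 in the second and between 0.56 and 1.10 in the third.

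Complex I, the NADH dehydrogenase, is built from a catalytic core, which carries the flavin and the iron-sulfur clusters, and many accessory subunits around it. Its 34 measured subunits had a median log2 ratio of -0.34 for MuSC +OSM over MuSC −OSM, 1.48 for MuSC −OSM over fresh MuSC and 1.10 for MuSC +OSM over fresh MuSC. In MuSC −OSM, 22 of 34 were at least 2-fold higher than in fresh MuSC, and in MuSC +OSM 18 of 34. The 6 measured core subunits had smaller medians than the 28 measured accessory subunits in both comparisons with fresh cells, 0.92 against 1.53 for MuSC −OSM and 0.66 against 1.13 for MuSC +OSM.

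Of the core subunits, Ndufv1, which binds the flavin, had a signal of 2563 in +OSM cells, 2948 in −OSM cells and 2149 in fresh MuSC. Ndufv2, its iron-sulfur partner, had 2620, 3509 and 1331 in the same order of arrays, and Ndufs1, the largest subunit and carrier of several clusters, had 2384, 2724 and 1423. The fresh array was the lowest for each of these, by between 1.37-fold (Ndufv1) and 2.64-fold (Ndufv2) against MuSC −OSM. Among the subunits nearer the ubiquinone site, Ndufs3 had 2596 in +OSM cells, 2828 in −OSM cells and 1018 in fresh MuSC, and Ndufs7 had 2052, 2563 and 1370. Ndufs8 stood apart from these, since its signal in MuSC +OSM (2626) was near that of fresh MuSC (2558) and 1.75-fold below MuSC −OSM (4594). Its other probe sets did not all go one way. The brightest of them read 2767, 3383 and 2414, with fresh MuSC lowest, and the next 2376, 2139 and 1195, with MuSC +OSM highest.

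Among accessory subunits, Ndufa4 and Ndufs4 had the highest ratios of MuSC −OSM over fresh MuSC. Ndufa4, named for complex I but now assigned to complex IV, had 3274 in +OSM cells, 5519 in −OSM cells and 1205 in fresh MuSC, 4.58-fold higher in MuSC −OSM than in fresh MuSC. Ndufs4, whose loss in mice serves as a model of mitochondrial encephalopathy, had 843, 1600 and 358, so that it was 1.90-fold lower with than without OSM and 4.47-fold higher in MuSC −OSM than in fresh MuSC. Its other probe sets did not all keep this order, at 175, 404 and 95, at 57, 111 and 109, and, near the floor, at 41, 37 and 48. With the mean of all its probe sets the log2 ratio was 1.003 for MuSC −OSM over fresh MuSC, against 2.16 on the brightest, and 0.24 for MuSC +OSM over fresh MuSC, against 1.24. The opposite end was held by Ndufb11, with 3778 in +OSM cells, 4874 in −OSM cells and 4639 in fresh MuSC, a membrane arm subunit whose gene lies on the X chromosome. Its other probe sets read 3578, 4499 and 4205 and, with fresh MuSC lowest, 1903, 2280 and 1477. On the probe sets used, Ndufa6 (1414, 2159 and 1740) and Ndufc2 (3597, 4702 and 3767) were likewise close to their fresh level in the cultured cells. Ndufv3 had the highest ratio of MuSC +OSM over MuSC −OSM among the subunits, at 3837 in MuSC +OSM against 3042 in MuSC −OSM and 1755 in fresh MuSC, followed by Ndufb3 at 1511, 1252 and 826. Neither reached 2-fold between the cultured arrays.

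Complex II, succinate dehydrogenase, belongs to the respiratory chain and to the tricarboxylic acid cycle and is encoded wholly by nuclear genes. Its 4 genes had a median log2 ratio of -0.40 for MuSC +OSM over MuSC −OSM, 1.17 for MuSC −OSM over fresh MuSC and 0.93 for MuSC +OSM over fresh MuSC. The catalytic subunits and the membrane anchors differed in the size of their ratios. Sdha, the flavoprotein, had 3368 in +OSM cells, 4740 in −OSM cells and 2908 in fresh MuSC, and Sdhb, the iron-sulfur subunit, had 2351, 2400 and 1430. The anchor Sdhc had 831, 1025 and 339, and the anchor Sdhd 1509, 2409 and 679. On the probe sets used, both anchors were over 2-fold higher on the cultured arrays than in fresh MuSC, and neither catalytic subunit was. Sdhc was 2.45-fold higher with and 3.02-fold higher without OSM, and Sdhd 2.22-fold and 3.55-fold. Second probe sets read 423, 486 and 313 for Sdhc and 424, 752 and 244 for Sdhd. With the mean of all probe sets, both anchors stayed at least 2-fold higher in MuSC −OSM than in fresh MuSC. In MuSC +OSM 0 of the 4 genes were.

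Complex III, the cytochrome bc1 complex, had the lowest median of the 5 complexes for MuSC +OSM over MuSC −OSM, at -0.65 over 8 genes. All 8 were lower with OSM, although under quantile normalization Uqcrfs1 and Uqcrq were slightly higher. Against fresh MuSC its medians were 1.20 for MuSC −OSM, with 6 of 8 genes at least 2-fold higher, and 0.70 for MuSC +OSM, with 3 of 8. Uqcrfs1, the Rieske iron-sulfur protein, had 2638 in +OSM cells, 2801 in −OSM cells and 1314 in fresh MuSC. The core proteins Uqcrc1 and Uqcrc2, which face the matrix, had 2765, 4546 and 1596 and 3959, 5616 and 3095. The genes of the complex were not alike between the cultured arrays. Uqcrfs1 and the small subunit Uqcrq (2647 in +OSM cells, 2679 in −OSM cells and 731 in fresh MuSC) were nearly level between them, at 1.06-fold and 1.01-fold lower with OSM, while the other 6 genes were between 1.42-fold (Uqcrc2) and 1.69-fold (Uqcr11) lower.

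Complex IV, cytochrome c oxidase, was the most varied. Its median log2 ratios were -0.49 for MuSC +OSM over MuSC −OSM (16 measured), 0.95 for MuSC −OSM over fresh MuSC (16 measured, 8 of them at least 2-fold higher) and 0.56 for MuSC +OSM over fresh MuSC (15 measured, 4 higher). It held the member with the highest ratio of MuSC −OSM over fresh MuSC, Cox8b, and the lowest, Cox7c, whose probe sets were dim. The tissue forms of its subunits lay apart. The 3 heart and muscle forms had a median of 3.30 for MuSC −OSM over fresh MuSC, and the 9 general forms 1.07.

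Cox8b, the muscle form of subunit 8, had a signal of 317 in +OSM cells, 797 in −OSM cells and 7 in fresh MuSC. It was 2.51-fold lower with than without OSM, and at least 7.92-fold (with OSM) and 19.9-fold (without OSM) above fresh MuSC, where it was below the floor. Its general counterpart Cox8a had 2705, 3260 and 2420, a near level signal, and the testis form Cox8c had 161, 229 and 234. Cox6a2, the muscle form of subunit 6a, had 805 in +OSM cells, 1836 in −OSM cells and 187 in fresh MuSC. It was 2.28-fold lower with than without OSM and 9.82-fold higher in MuSC −OSM than in fresh MuSC, and a second probe set read 290, 694 and 24. The general form Cox6a1 had 10474, 12557 and 8074. Cox7a1, the muscle form of subunit 7a, was dim, at 77 in +OSM cells, 145 in −OSM cells and 50 in fresh MuSC, 1.88-fold lower with than without OSM and 2.90-fold higher in MuSC −OSM than in fresh MuSC. Its general counterpart Cox7a2 had 7610, 12279 and 3970. For each of these 3 pairs, the muscle form differed by more between the cultured arrays than the general form on the probe sets used. For subunit 7a, the ratios of MuSC −OSM over fresh MuSC were near each other (2.90-fold for Cox7a1 and 3.09-fold for Cox7a2). Second bright probe sets of Cox6a1 (3778, 3227 and 2883) and Cox8a (2906, 2721 and 2217) were higher with than without OSM. That of Cox7a2 (3906, 5230 and 2057) was lower.

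The muscle forms moved with the markers of differentiated muscle. The 13 such markers, among them Myog, Ckm and the myosin heavy chain genes, had a summed signal of 68652 in +OSM cells, 138564 in −OSM cells and 13221 in fresh MuSC, and 12, 13 and 12 of them were above the floor on these arrays. Of the 13, 7 were lower by at least 2-fold with than without OSM (median log2 ratio -1.36), and 12 were at least 2-fold higher in MuSC −OSM than in fresh MuSC (median 3.36). None was at 0. The part of this difference in any ratio of the oxidative phosphorylation genes was not tested. In RNA from a whole culture, more such cells and more RNA per cell cannot be told apart.

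**Figure D3:**
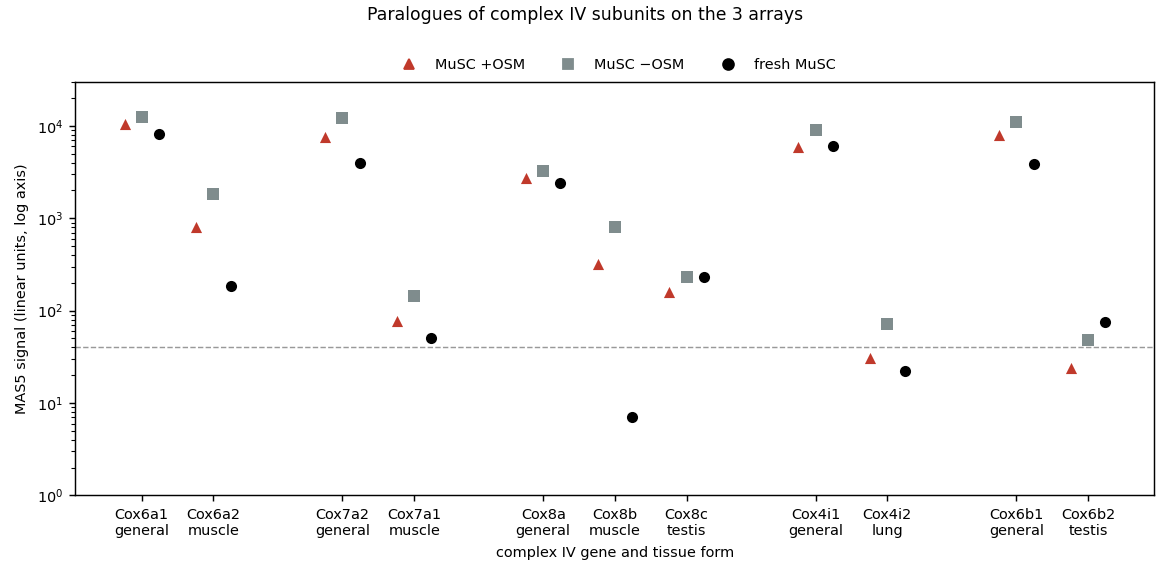
MAS5 signal (linear units on a log axis) of the complex IV genes that have tissue forms, on the arrays of MuSC +OSM (triangles), MuSC −OSM (squares) and fresh MuSC (circles), 1 array each, with the floor of 40 dashed. The muscle forms Cox6a2 and Cox8b were 2.28-fold and 2.51-fold lower with than without OSM and lowest in fresh MuSC, while Cox6a1 and Cox8a were within 1.21-fold between the cultured arrays.

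Among the other complex IV subunits, Cox5a, a subunit on the matrix side of the complex, had the highest ratio among the general forms, at 9377 in +OSM cells, 11973 in −OSM cells and 1934 in fresh MuSC (4.85-fold with and 6.19-fold without OSM against fresh MuSC). Its other probe sets read 6288, 8170 and 1376 and 6443, 7017 and 1690, the same order each time. Cox6b1 had 8049, 11092 and 3868, and Cox5b 7514, 8754 and 3992. Cox4i1, the general form of the largest nuclear subunit, had 5863 in +OSM cells, 8920 in −OSM cells and 6113 in fresh MuSC, so that MuSC +OSM and fresh MuSC were nearly level. The lung form Cox4i2 was dim, at 31, 71 and 22, as was the testis form Cox6b2 at 24, 48 and 75. Cox7c, a general form, was also dim, at 154, 164 and 288 (68, 43 and 74 on a second probe set). Cox7a2l, a factor that joins complexes III and IV into supercomplexes, had 2041, 2050 and 2877. In Cox7a2l the −OSM array lay 1.40-fold below the fresh array, and in the dim Cox7c and Cox6b2 1.76-fold and 1.56-fold below it.

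Complex V, the ATP synthase, consists of a catalytic F1 head, a membrane ring of subunit c that turns in the membrane, a peripheral stalk and small membrane subunits. Its 17 genes had medians of -0.37 for MuSC +OSM over MuSC −OSM, 1.46 for MuSC −OSM over fresh MuSC and 0.94 for MuSC +OSM over fresh MuSC. All 17 were lower with than without OSM, and 13 of 17 under quantile normalization. At least 2-fold higher than in fresh MuSC were 12 in MuSC −OSM and 8 in MuSC +OSM. By role, the medians for MuSC −OSM over fresh MuSC were 0.73 for the 5 F1 subunits, 1.27 for the 4 stalk subunits, 1.46 for the 3 genes of subunit c and 1.71 for the 5 small membrane subunits.

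In the F1 head, Atp5a1 had 7142 in +OSM cells, 8249 in −OSM cells and 5609 in fresh MuSC, and Atp5b, which forms the catalytic sites with it, had 9011, 12368 and 7454. Atp5c1, the turning central shaft, had 4824, 6220 and 3005. Its other measured probe set was dim and ran the other way in each comparison, at 75, 44 and 96. Subunit c is made from a trio of genes with the same mature protein, and these differed among themselves. Atp5g1 had 1634 in +OSM cells, 2557 in −OSM cells and 628 in fresh MuSC, 4.07-fold higher in MuSC −OSM than in fresh MuSC, while a second, dim probe set had 13, 48 and 46. Atp5g3 had 8146, 13636 and 4946, and Atp5g2 had 2947, 3387 and 2933, which is within 1.15-fold on all 3 arrays. Atp5md, a small subunit associated with dimers of the synthase, had the second highest ratio of MuSC −OSM over fresh MuSC among all members, at 3430 in +OSM cells, 5227 in −OSM cells and 429 in fresh MuSC (12.2-fold higher in MuSC −OSM than in fresh MuSC).

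The assembly factors, which help to build complexes I and II and are not part of them, had a median nearer to 0 between the cultured arrays than any of complexes I to V, at -0.14 on the log2 scale over 12 genes for MuSC +OSM over MuSC −OSM. Against fresh MuSC they were higher, with medians of 1.05 for MuSC −OSM and 0.87 for MuSC +OSM, and 6 and 4 of the 12 were at least 2-fold higher. Ndufaf1, which acts on the membrane arm of complex I, had 649 in +OSM cells, 586 in −OSM cells and 158 in fresh MuSC, 4.11-fold and 3.71-fold higher than in fresh cells. Ndufaf4 had 1027, 892 and 351, and Ndufaf7 had 277, 241 and 158. Ndufa4l2, known to be induced by low oxygen, was above the floor in MuSC +OSM alone, with 54, 10 and 7.

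The other gene lists of the mitochondrial energy pathway had medians above 0 for MuSC −OSM over fresh MuSC, each smaller than that of the subunits of the complexes (1.30), and their counts stand against 15% of all genes, and 31.6% of bright genes, at least 2-fold higher. Of 8 measured respiratory chain genes outside the symbol rule, 2 were at least 2-fold higher in MuSC −OSM than in fresh MuSC (median 0.93), led by Cycs, cytochrome c, with 9139 in +OSM cells, 15498 in −OSM cells and 3576 in fresh MuSC. Coq7, a hydroxylase of ubiquinone synthesis, had 992, 516 and 417 and was the highest of this list with OSM over without. Of 26 further assembly genes, 10 were at least 2-fold higher in MuSC −OSM than in fresh MuSC (median 0.75). At least 2-fold lower was 1, against 20.4% of all genes. Uqcc2, an assembly factor of complex III, had 1268 in +OSM cells, 2992 in −OSM cells and 432 in fresh MuSC. It was the 1 gene of the list at least 2-fold lower with than without OSM, where 4.38% of all genes were. Cox17, a copper chaperone for complex IV, had 2925, 4003 and 746, and Ttc19, which maintains complex III, was lower in culture at 142, 135 and 648.

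Of the tricarboxylic acid cycle genes, 8 of 15 were at least 2-fold higher in MuSC −OSM than in fresh MuSC (median 1.04). In MuSC +OSM 3 of 15 were (median 0.70), against 13.8% of all genes and 25.6% of bright genes. Between the cultured arrays 0 of 15 passed 2-fold in either direction, where 6.07% of all genes were higher with OSM and 4.38% lower. The ends of the list were subunits of the same enzyme, succinyl-CoA ligase, with Suclg1 at 1582, 2605 and 517 and Suclg2 at 406, 434 and 778 in MuSC +OSM, MuSC −OSM and fresh MuSC. Of the mitochondrial import genes, 8 of 15 were at least 2-fold higher in MuSC −OSM than in fresh MuSC (median 1.11), the highest being Timm17a, a subunit of the inner membrane translocase, with 2241, 2659 and 624. The co-chaperonin gene Hspe1 was lowest with over without OSM, at 2219, 4221 and 4342. Regulators of mitochondrial biogenesis differed less, with 3 of 14 at least 2-fold higher in MuSC −OSM than in fresh MuSC and a median of 0.31, and they were split in direction, with 8 above and 6 below fresh MuSC. Ppargc1a, the coactivator PGC-1α, was dim and had 32 in +OSM cells, 76 in −OSM cells and 98 in fresh MuSC, and Polrmt, the mitochondrial RNA polymerase, had 618, 840 and 248. Gabpa, an ETS factor of respiratory chain genes, had 1325, 973 and 1172.

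**Figure D4:**
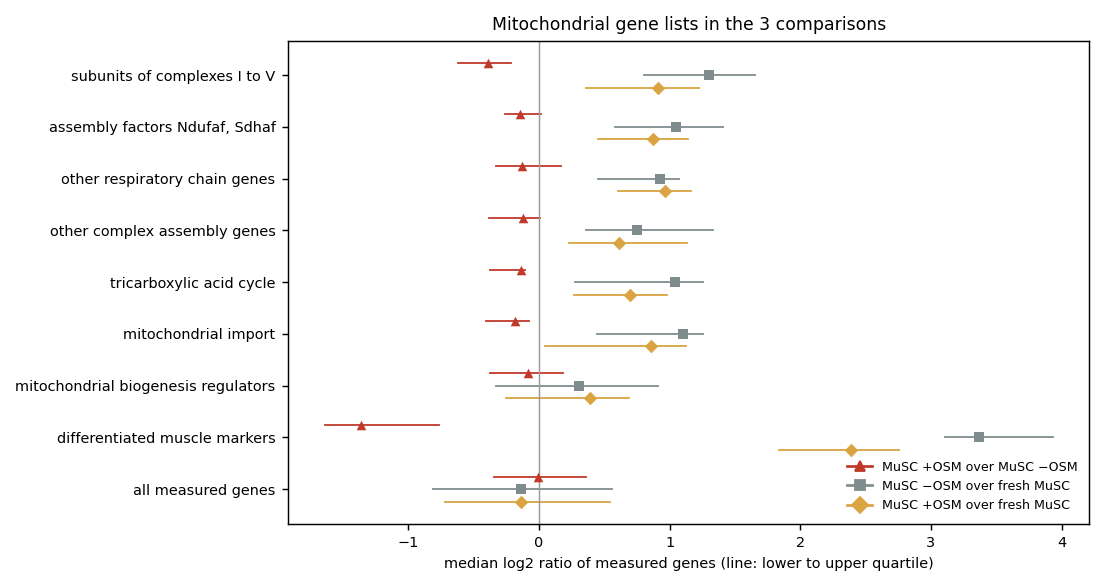
Medians of the log2 ratios in each gene list (points; lines run between the quartiles of the genes) for MuSC +OSM over MuSC −OSM (triangles), MuSC −OSM over fresh MuSC (squares) and MuSC +OSM over fresh MuSC (diamonds). The subunits lie at -0.39, 1.30 and 0.91, all measured genes at -0.01, -0.14 and -0.14, and differentiated muscle markers at -1.36, 3.36 and 2.39.

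The arrays also differed in other cells and in RNA measures. Summed signals in MuSC +OSM, MuSC −OSM and fresh MuSC were 4736, 3753 and 23566 for 7 muscle stem cell markers, 623, 128 and 13862 for 4 of 5 listed fibroblast markers, 80, 91 and 1138 for 5 endothelial markers, 53, 119 and 1306 for 6 leukocyte markers, 211, 104 and 4287 for 3 of 5 listed Schwann cell markers, and 13588, 19494 and 9096 for 5 smooth muscle and pericyte markers. Above the floor on these arrays were 5, 5 and 7 of the 7 muscle stem cell markers, 4, 1 and 4 of the 4 fibroblast markers, 0, 1 and 3 of the 5 endothelial markers, 0, 0 and 2 of the 6 leukocyte markers, 3, 1 and 3 of the 3 Schwann cell markers and 4, 2 and 5 of the 5 smooth muscle and pericyte markers. In the smooth muscle and pericyte sum, Acta2 alone read 13114, 19053 and 6543 in the same order of arrays. Rgs5 (59, 35 and 1687), Myh11 (1, 2 and 301) and Kcnj8 (83, 23 and 203) were highest in fresh MuSC. Cspg4 was near level, at 331, 381 and 362. No marker was at 0 on any array, and the leukocyte gene Ptprc lay at 7, 2 and 1. Pax7, the defining MuSC factor, was 431, 282 and 4006. The ratio of 3′ to 5′ actin control probe sets was 1.41, 1.40 and 2.35, that of Gapdh 0.905, 1.14 and 1.36, and the median signal over all probe sets 32, 36 and 53. The fresh array thus stood apart in RNA measures and in signal of other cell types, and the part of either in the members' ratios was not tested.

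Repeat probe sets give a check of the probe, within the same RNA. For genes with a further probe set above the floor, the direction of the probe set used was matched by 54 of 79 for MuSC +OSM over MuSC −OSM (68.4%), by 69 of 83 for MuSC −OSM over fresh MuSC (83.1%) and by 64 of 84 for MuSC +OSM over fresh MuSC (76.2%). Those that differed included further probe sets of Ndufs4, Ndufb8, Atp5j2, Uqcrq and Sdha.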

How the data were processed

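RNA of sorted mouse MuSC was amplified with 3′ IVT Express reagents and read on 1 Affymetrix MOE_430_2 array each for MuSC +OSM, MuSC −OSM and fresh MuSC. The authors deposited MAS5 signal intensity values on a linear scale, scaled to a common trimmed mean with a MAS5 version that the sources do not name. Conditions were taken from the labels and columns were matched by name.

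Array ratios were calculated with Python 3.11.15, numpy 2.4.6 and pandas 2.3.3. The 64 control probe sets were left out. Of the remaining 45037 probe sets, 34945 named 1 gene, 932 several and 9160 none in the platform annotation. For each gene the probe set with the highest signal averaged over the arrays was used. Signals under 40 were raised to 40 before log2, calls were set at 2-fold, and levels of different probe sets were not compared. All 94 members were matched to RefSeq by Entrez ID and 0 symbols changed. With 1 array per condition no test, error or p-value was possible, so counts and medians stand beside those over all measured genes. The calculation was tested on simulated data.

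Named genes were the catalytic core subunits, the paralogue pairs, the 5 members with the highest and the 5 with the lowest ratio of each comparison among those with a signal of at least 100, and the ends of each context list. The members and lists were chosen with earlier results of these data known. Genes or probe sets named outside this rule (Cox5b, Ndufc2, Uqcrq, Uqcr11, Ndufb4, Pax7, Ptprc, the smooth muscle and pericyte markers and repeat probe sets) were chosen after their values were seen. Alternatives were 2 other scalings (arrays centred on their median, quantile normalization), floors of 20 and 100, the geometric mean of all probe sets, a threshold of 1.5-fold, a signal of at least 1000, and a preference for probe sets without cross-hybridisation marks. Under that preference, genes that had only marked probe sets kept them.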

Additional observations from a re-analysis of the deposited data

How the results depend on the processing

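Of 8 alternatives, those that recompute the medians over the members and over complexes I to V kept the direction of each, but sizes and counts moved. Centring each array on its median gave medians for MuSC +OSM over MuSC −OSM of -0.51 over all members, -0.51 for complex I and -0.82 for complex III, and for MuSC +OSM over fresh MuSC of 0.58 over all members and 0.61 for complex V. With it, 4 members were at least 2-fold lower with than without OSM (6.20% of all genes). Against fresh MuSC 16 were higher (8.52% of all genes) and 2 lower (24.5%) in MuSC +OSM. All-gene medians under it were -0.15, -0.27 and -0.38, against -0.01, -0.14 and -0.14, for MuSC +OSM over MuSC −OSM, MuSC −OSM over fresh MuSC and MuSC +OSM over fresh MuSC. Relative to the all-gene median, the members lay at -0.37, 1.34 and 0.96 under it and at -0.34, 1.37 and 1.05 in the values reported. Quantile normalization gave medians for MuSC +OSM over MuSC −OSM of -0.26 over all members, -0.25 for complex I and -0.19 for complex V, and the mean of all probe sets gave -0.26 over all members. With a floor of 20, 1 member was at least 2-fold higher (6.48% of all genes) and 4 lower (6.75%) with than without OSM. Against fresh MuSC 1 was lower in MuSC +OSM (22.1% of all genes). At 1.5-fold, 25 members were lower with than without OSM (12.9% of all genes). Against fresh MuSC 61 were higher (23.7% of all genes) and 2 lower (29.3%) in MuSC +OSM, and 2 were lower in MuSC −OSM (31.5%). A signal of at least 1000 left 1 member at least 2-fold lower with than without OSM (5.26% of such genes). With unmarked probe sets preferred, 1 member was at least 2-fold below fresh MuSC with OSM (17.3% of all genes) and 2 without (20.4%). Of 873 values of named genes under an alternative, 31 (of 16 genes) changed sign, 29 of which were under 2-fold as reported. There were 11 under quantile normalization, 8 with arrays centred on their median, 7 with unmarked probe sets preferred and 5 with the mean of all probe sets. The 2 that were at least 2-fold were both of Atp5c1 in MuSC −OSM over fresh MuSC. They were -0.038 with the mean of all probe sets and -1.13 with unmarked probe sets preferred, where the dim probe set is read in place of the bright one. That last setting also turned MuSC +OSM over MuSC −OSM to 0.15 for Ndufs8, 0.66 for Cox7c and 0.77 for Atp5c1, and MuSC +OSM over fresh MuSC to -0.36 for Atp5c1. The number of arrays limits the precision, and signals near the floor of 40 have no reliable order. No paired analysis was possible because each condition has 1 array and the values come from no test.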
